A study of Arabidopsis thaliana with 18 samples.

Results

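Seedlings of the Arabidopsis double mutant ate1 ate2 were compared under hypoxia and in air. The comparison rests on the 4 arrays whose titles name that genotype in seedlings, of 18 arrays in the series, and covers all 22746 probe sets that are not array controls. The 2 arrays of hypoxic ate1 ate2 seedlings were set against the 2 of ate1 ate2 seedlings kept in air. The other seedling arrays, 2 for each of Col-0 (wild type) and prt6-1 in each condition, entered the same fit. The remaining 6 arrays are of Col-0 and prt6-1 seeds imbibed for 24 h, not yet germinated, and serve here for a tissue check and for 1 alternative fit of all 18 arrays. All seedlings were 7 days old and had grown upright on medium with 1% sucrose at 23 °C and 16 h of light a day, after 3 days of cold storage as seed. Treatment lasted 2 h from the end of the light period, at 6.5 µmol of dim light per square metre and second, either in a chamber flushed with 99.995% argon or in air. Whole seedlings were frozen, so fewer cells of a type and less RNA per cell cannot be told apart in any value below. The labels name no alleles beyond the genotypes, and the replicates were independent biological experiments per the design text. Arrays are named here by condition and number, as in air 1 or hypoxia 2.

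The N-end rule pathway has an arginine branch, in which a protein is marked for degradation by its N-terminal residue. ATE1 and ATE2 are arginyl transferases, which add arginine to N termini that start with certain acidic or oxidised residues, and PRT6 is the E3 ligase that recognises the arginylated ends. Among the known substrates in Arabidopsis are the group VII ethylene response factors, whose N-terminal cysteine is oxidised when oxygen is present. These factors activate a set of genes known as core hypoxia-responsive genes, which serve fermentation, sugar breakdown and oxygen sensing. With both transferases missing, the comparison asks what response to low oxygen remains.

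The values are log2 signals on the deposited scale, and a change is the hypoxia mean minus the air mean in log2 units, so that 1 unit is a doubling. Array medians among the 12 seedling arrays differed little, between 6.76 and 6.88. A gene counts as measured here if a probe set carries its name alone. The measured photosynthesis genes (29) had medians of 11.09 to 11.61 on the seedling arrays and 8.59 to 9.22 on the seed arrays, and 2 seed storage genes 4.33 to 4.61 against 8.50 to 10.78, as labelled. ATE1, ATE2, PRT6 and the group VII factors are not analysed here, because no probe set carries their names in the tables used, so the genotype was not checked on its own transcripts. The arrays ate1 ate2 air 1 and air 2 differed by over 1 log2 unit on 46 probe sets, 33 of them higher on air 1, against 0 to 14 probe sets in the other 5 groups. Of these 46, 5 belong to the late embryogenesis abundant list, none (0) to the core hypoxia list, and 5 changed under hypoxia.

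Hypoxia moved transcripts in both directions in ate1 ate2. By limma, 367 probe sets were higher (1.61% of those tested) and 298 lower (1.31%) at an adjusted p under 0.05, and 66 of the rises and 43 of the falls reached 1 log2 unit. At an unadjusted p under 0.05 there were 3474. The total of 665 fell to 192 without hypoxia 2 and to 351 without hypoxia 1, and was 496 or 574 without 1 of the air arrays. A single gene name was available for 200 of the rises and 127 of the falls. The other 338 called probe sets (167 higher, 171 lower) are counted and not named. Under median centring of the arrays, rises were 44.5% of the calls in place of 55.2%.

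Most measured core hypoxia-responsive genes still rose in ate1 ate2. The list names 48 genes, of which 27 were measured. The others may lie on the 8730 probe sets without a gene name, or on those with several. Counts for this list and those below thus cover only part of each. Of the 27, 20 rose and none (0) fell, with a median change of 1.01 where all probe sets had -0.02. Both hypoxia arrays lay above both air arrays for 23 of the 27, against 20.7% of all probe sets, and 14 of the rises were at least 1 log2 unit. In Col-0 25 of the 27 rose (374 higher, 1.64% of all probe sets) with a median of 3.23, and in prt6-1 21 rose (399 higher, 1.75%) with a median of 1.26. The count was 16 to 18 when any 1 of the 4 arrays was left out.

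AT5G10040, a core gene known here by its locus code, showed the largest rise of any named gene. It read 7.02 and 7.31 in air and 10.56 and 10.14 under hypoxia, a change of 3.19 (SE 0.16, adjusted p = 6.92e-08), which is 9.11-fold. The hypoxia arrays thus stood clear of the air arrays. In Col-0 the same gene went from 4.52 and 4.75 to 10.58 and 10.45, a change of 5.88. AT3G23170 read 6.66 and 6.96 in air and 9.58 and 9.84 under hypoxia, a change of 2.90 (SE 0.15, adjusted p = 6.96e-08). Both genes reached under hypoxia a level that differed from hypoxic Col-0 by less than the test could call, by -0.17 (95% interval -0.51 to 0.18) and -0.23 (-0.55 to 0.10).

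AT3G10040, listed under the synonym HRA1 (HYPOXIA RESPONSE ATTENUATOR1), encodes a transcription factor known to restrain a group VII factor. It stood at 8.07 and 8.24 in air and at 10.70 and 10.52 under hypoxia, a rise of 2.45 (SE 0.13, adjusted p = 6.99e-08). It was the 1 called gene of 5 measured in the N-end rule and oxygen sensing list, where 1.61% of all probe sets rose. The others changed by 0.02 to 0.33. CML38, which encodes a calmodulin-like calcium sensor, read 8.86 and 8.77 in air and 10.75 and 10.60 under hypoxia. Its rise was 1.86 (SE 0.14, adjusted p = 2.73e-06), or 3.63-fold, against 35.4-fold in Col-0, and its neighbour CML39 (AT1G76640), not itself a core gene, went up by 0.98 (SE 0.16, adjusted p = 0.00275). CML39 read 4.43 and 4.98 in air and 5.64 and 5.73 under hypoxia. None of the other 6 measured calmodulin-like genes was called, where 1.61% of all probe sets rose and 1.31% fell.

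**Figure D1:**
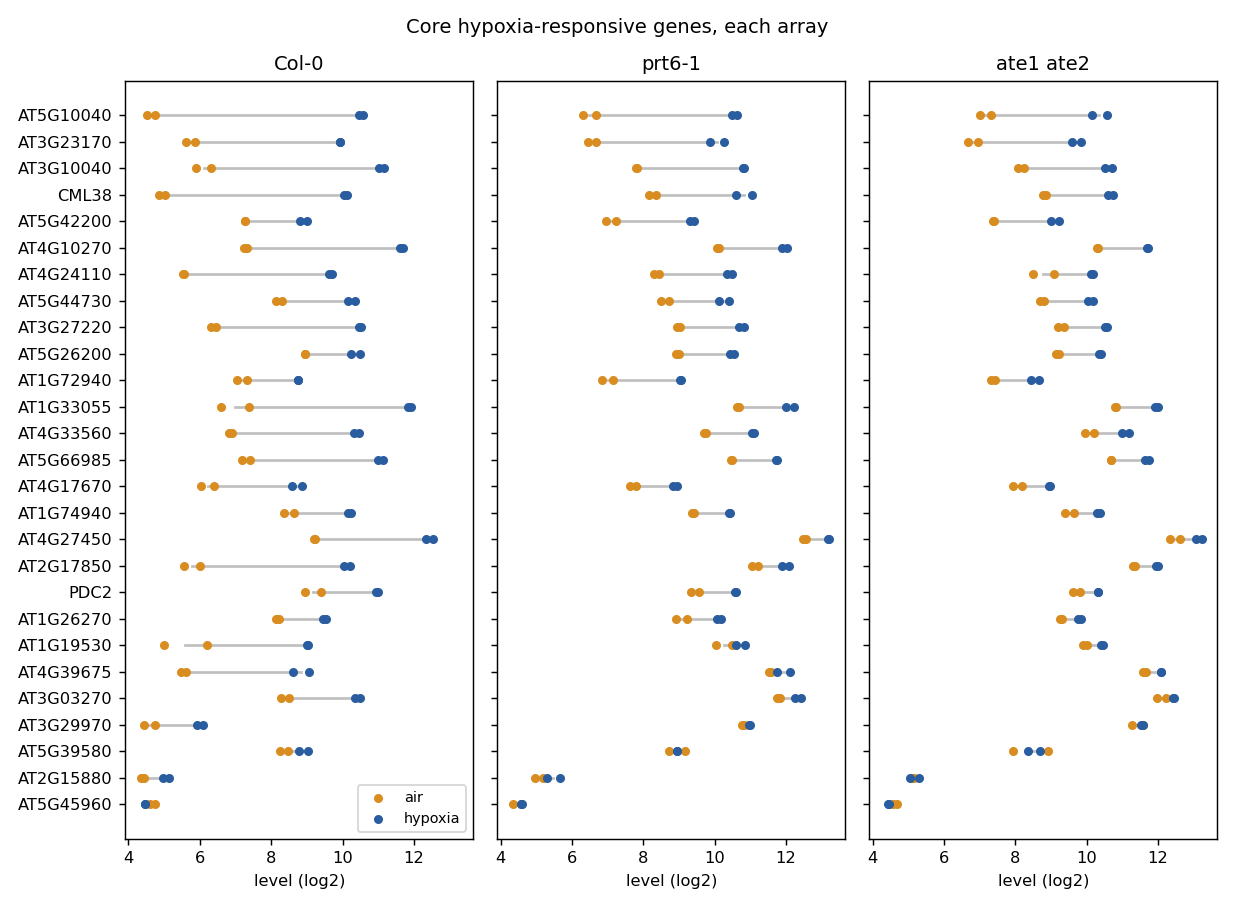
Levels of the 27 measured core hypoxia-responsive genes (log2, x axis) on each array of Col-0, prt6-1 and ate1 ate2, with air in orange, hypoxia in blue and a grey line between the group means; genes are ordered by their change in ate1 ate2. The air points of ate1 ate2 sit well to the right of those of Col-0 for most genes, while the hypoxia points of the genotypes lie close together for many.

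The core genes also differed in their levels in air. There, 22 of the 27 were higher in ate1 ate2 than in Col-0 (475 higher, 2.09% of all probe sets, and 368 lower, 1.62%), by a median of 2.53. Under hypoxia 9 were higher than in Col-0 and 1 was lower (1.11% and 1.51% of all probe sets), with a median of 0.15. These comparisons use the same ate1 ate2 arrays as the response itself and are given beside it as values.

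Several core genes started higher than in Col-0 and rose from there. AT4G10270 read 10.29 and 10.31 in air and 11.68 and 11.72 under hypoxia, a rise of 1.40 (SE 0.10, adjusted p = 1.63e-06). In Col-0 it read 7.33 and 7.24 in air and 11.69 and 11.61 under hypoxia, so the hypoxic arrays of both genotypes overlapped while the air arrays stood about 3 units apart (difference 3.02). AT3G27220 behaved alike in value, with 9.20 and 9.35 in air and 10.56 and 10.51 under hypoxia in ate1 ate2, a rise of 1.26 (SE 0.10) and a difference of 0.06 from hypoxic Col-0. AT1G33055, AT4G24110 and AT4G17670 rose by 1.15, 1.38 and 0.91, and none of these 3 was called different from hypoxic Col-0 (0.09 to 0.49). AT4G33560 and AT5G66985 both rose by 1.01 and ended above hypoxic Col-0, by 0.70 (adjusted p = 0.00275) and 0.64 (adjusted p = 0.00291).

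For other core genes the mean level in air was at or above that of hypoxic Col-0 and the further change was small. AT4G39675 read 11.65 and 11.58 in air and 12.07 on both hypoxia arrays, a change of 0.46 that was not called (SE 0.14, adjusted p = 0.118). Col-0 went from 5.46 and 5.62 to 9.05 and 8.61, so every ate1 ate2 array, in air too, lay above every hypoxic Col-0 array. AT3G29970 read 11.26 and 11.59 in air and 11.58 and 11.53 under hypoxia, with overlapping groups and a change of 0.13 (95% interval -0.14 to 0.41). In Col-0 it reached 5.91 and 6.09 under hypoxia, and the ate1 ate2 level was 5.55 above that. AT3G03270 (change 0.33) and AT1G19530 (0.48) were not called either, and both were above hypoxic Col-0, by 2.02 and 1.42. AT2G17850 rose by 0.66 from 11.35 and 11.29 (adjusted p = 0.0175) and AT4G27450 by 0.67 from 12.33 and 12.62 (adjusted p = 0.00427). The call of AT2G17850 was lost without any 1 of the 4 arrays (0.63 to 0.69), and that of AT4G27450 without hypoxia 1 (0.60).

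For 4 core genes that rose, the air level was within 0.53 of that of Col-0 and no difference from the wild-type rise was called. AT5G42200 read 7.39 and 7.38 in air and 9.01 and 9.23 under hypoxia, a rise of 1.74 (SE 0.12, adjusted p = 1.41e-06) beside 1.64 in Col-0. The difference between these responses was 0.10 (95% interval -0.27 to 0.46). AT5G26200 rose by 1.19, from 9.14 and 9.23 to 10.34 and 10.41, and differed from the Col-0 response by -0.22 (-0.55 to 0.12). For AT1G72940, with a rise of 1.18, and AT5G44730, with 1.38, the differences were -0.39 and -0.66, with adjusted p = 0.649 and 0.254. In air AT5G44730 was 0.53 higher than in Col-0 (adjusted p = 0.0303), and the other three differed by 0.11 to 0.22 without a call.

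PDC2, a pyruvate decarboxylase gene of ethanolic fermentation, was the 1 core gene called lower in hypoxic ate1 ate2 than in hypoxic Col-0. It read 9.80 and 9.61 in air and 10.33 and 10.31 under hypoxia, a rise of 0.62 (SE 0.13, adjusted p = 0.0212) against 1.80 in Col-0, and hypoxic ate1 ate2 was 0.65 below hypoxic Col-0 (adjusted p = 0.0152). The rise was not called without air 2 (0.52), hypoxia 1 (0.60) or hypoxia 2 (0.63). The other two measured genes of the fermentation and sucrose breakdown list were not called: AT4G17260 changed by 0.38 (adjusted p = 0.125) and PPDK, a pyruvate phosphate dikinase gene, by -0.38 (adjusted p = 0.106). AT1G26270 rose by 0.51 (adjusted p = 0.0248) and AT1G74940 by 0.82 (adjusted p = 0.00144), and the first call was lost without any 1 of the 4 arrays (0.48 to 0.54). AT2G15880, AT5G39580 and AT5G45960 changed by 0.05, 0.11 and -0.18 and were not called.

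The difference between the ate1 ate2 and Col-0 responses was tested as an interaction. Across all probe sets 67 had a smaller or more negative change in ate1 ate2 (0.295%) and 3 a larger one (0.0132%), with 1740 at an unadjusted p under 0.05. Of the 27 core genes 19 were among the 67; 15 of these still rose in ate1 ate2 and 4 were not called there. The count of 70 was 41 to 46 without 1 of 5 arrays (Col-0 air 1, either Col-0 hypoxia array or either ate1 ate2 hypoxia array), 112 without Col-0 air 2 and 133 without ate1 ate2 air 1. The core count stayed between 16 and 19 in each of these fits. Of the 67 probe sets, 54 had risen in Col-0, against 1.64% of all probe sets. In ate1 ate2, 33 rose, 13 fell and 21 were not called, where 1.61% of all probe sets rose and 1.31% fell. The 67 were picked on the same arrays, and a rise in Col-0 or a fall in ate1 ate2 favours being picked. These counts are thus description only.

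The largest interaction among named genes was that of AT1G33055. It read 10.83 and 10.80 in air and 12.01 and 11.91 under hypoxia in ate1 ate2, a rise of 1.15 (SE 0.18), and 6.58 and 7.38 in air and 11.91 and 11.83 under hypoxia in Col-0. The responses differed by -3.75 (SE 0.26, adjusted p = 8.88e-07), while the hypoxic means differed by 0.09. AT2G17850 followed at -3.68 and CML38 at -3.29. No interaction was called for 5 core genes that rose in ate1 ate2, namely AT5G42200, AT5G26200, AT1G72940, AT5G44730 and AT1G26270 (-0.81, adjusted p = 0.0540). The interaction of AT1G74940 (-0.88, adjusted p = 0.0478) was lost without any of 6 arrays, and those of AT3G23170 (-1.30, adjusted p = 0.0135) and PDC2 (-1.18, adjusted p = 0.0105) without any of 4. Both hypoxia arrays of Col-0 and hypoxia 1 of ate1 ate2 were among these arrays for all 3 genes. Air 1 of Col-0 was another for AT3G23170, hypoxia 2 of ate1 ate2 for PDC2, and both of these with air 2 of ate1 ate2 for AT1G74940. With all 18 arrays in 1 fit the interactions of AT1G74940 and PDC2 were also lost. That of AT1G74940 was lost with only the arrays compared as well.

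**Figure D2:**
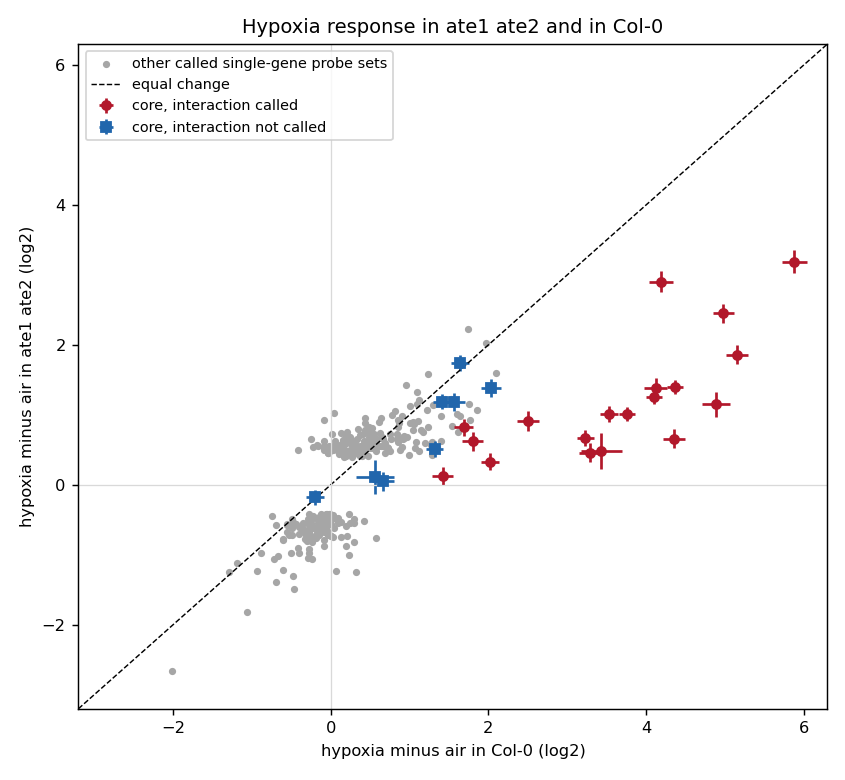
Change under hypoxia in ate1 ate2 (y axis) against that in Col-0 (x axis), log2, for the 27 core genes with bars of 1 SE and for the other named probe sets called in ate1 ate2 (grey); red circles mark the 19 core genes with a called interaction and blue squares the other 8. Core genes lie below the dashed line of equal change in 25 of 27 cases, and the fallers lie mostly at small negative changes in Col-0.

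A larger response in ate1 ate2 than in Col-0 was called for 2 named genes. AT5G48110 read 5.40 on both air arrays and 6.51 and 6.36 under hypoxia, a rise of 1.03 (SE 0.12, adjusted p = 0.000166), where Col-0 changed by 0.04. The difference of 0.99 (adjusted p = 0.0197) lost its call when Col-0 air 1 (0.91), Col-0 hypoxia 2 (0.89) or ate1 ate2 hypoxia 1 (0.91) was left out. AT4G08780 read 5.71 and 5.80 in air and 6.12 and 6.40 under hypoxia, a rise of 0.50 (adjusted p = 0.0366) beside -0.41 in Col-0 and -0.82 in prt6-1. Its difference from Col-0 was 0.92 (adjusted p = 0.0344) and was lost without any of 5 arrays (0.77 to 0.95): both Col-0 hypoxia arrays, Col-0 air 1, ate1 ate2 air 1 and ate1 ate2 hypoxia 2. The call was also lost with an intensity trend, with all 18 arrays in 1 fit and with only the arrays compared.

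Several transcripts outside the core list also rose in ate1 ate2, with no called difference from the Col-0 response. AT4G31020 read 5.02 and 5.18 in air and 7.39 and 7.25 under hypoxia, a rise of 2.22 (SE 0.12, adjusted p = 6.96e-08), beside 1.74 in Col-0 and 2.08 in prt6-1. AT5G20790 read 8.55 and 8.58 in air and 10.53 and 10.64 under hypoxia, a rise of 2.02 (SE 0.10, adjusted p = 6.92e-08) beside 1.97 in Col-0. For AT5G20790, ate1 ate2 stood above Col-0 by 1.86 in air and by 1.91 under hypoxia, so its rise was added to a higher start. AT1G03610, AT1G31310, AT3G11580 and AT4G28703 rose by 1.32 to 1.60, and none of the 4 had a called difference from the Col-0 response (-0.50 to 0.46).

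GID1A, a gibberellin receptor gene, was the 1 called of 3 measured in its list, against 1.61% of all probe sets higher. It read 8.43 and 8.24 in air and 9.26 and 9.20 under hypoxia. Its rise was 0.89 (SE 0.11, adjusted p = 0.000265) next to 0.87 in Col-0 and 0.88 in prt6-1. Of 8 measured genes of mitochondrial dysfunction and oxidative stress, 3 rose, against 1.61% of all probe sets, and none (0) fell, against 1.31%, with a median of 0.41. The count was 2 without air 1 and 1 without hypoxia 2. STZ, also known as ZAT10, a zinc-finger repressor of stress responses, read 5.92 and 6.39 in air and 7.13 and 7.28 under hypoxia and rose by 1.05 (SE 0.17, adjusted p = 0.00337). AT2G41730 rose by 1.16 and AT2G04050 by 1.13. STZ was not called without hypoxia 2 (0.98), nor AT2G04050 without that array (0.87) or air 1 (0.92). Of 72 listed genes of the WRKY family of transcription factors 7 were measured and 2 rose, against 1.61% of all probe sets. These were WRKY22, which changed by 0.63 (adjusted p = 0.0378), from 6.23 and 6.76 to 7.10 and 7.14, and WRKY6 by 0.48 (adjusted p = 0.0209), from 7.46 and 7.68 to 8.03 and 8.07. Both lost their call without air 1 (0.37 and 0.36), hypoxia 1 (0.65 and 0.49) or hypoxia 2 (0.61 and 0.46).

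The transcripts that fell in ate1 ate2 were led by AT5G57760, known here by its locus code. It read 6.08 and 7.21 in air and 3.99 and 3.98 under hypoxia, a change of -2.66 (SE 0.26, adjusted p = 3.25e-05) beside -2.01 in Col-0 and -2.88 in prt6-1. The air arrays differed from each other by more than 1 unit and still lay above both hypoxia arrays. AT5G62280 read 8.31 and 8.03 in air and 6.44 and 6.28 under hypoxia, a change of -1.81 (SE 0.19, adjusted p = 8.15e-05). AT5G12050 read 9.07 and 9.23 in air and 7.49 and 7.83 under hypoxia, a change of -1.49 (SE 0.14, adjusted p = 2.36e-05) where Col-0 changed by -0.47. AT4G30320, AT4G25250, AT5G01210 and AT3G49960 fell by between 1.01 and 1.39 log2 units, and AT5G50335 changed by -1.30 (adjusted p = 0.0175), a call lost without any 1 of the 4 arrays (-1.35 to -1.26).

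Of 176 listed auxin response genes 21 were measured, and of these 5 fell, against 1.31% of all probe sets, and none (0) rose, against 1.61%, with a list median of -0.15 beside -0.02 over all probe sets. SAUR57 (AT3G53250), of a family of small auxin-induced transcripts, read 5.90 and 5.42 in air and 4.46 and 4.40 under hypoxia, a change of -1.23 (SE 0.15, adjusted p = 0.000305). IAGLU, whose product attaches glucose to auxin, read 7.69 and 7.82 in air and 6.80 and 6.59 under hypoxia, a change of -1.06 (SE 0.12, adjusted p = 0.000103). These air and hypoxia arrays did not overlap in either gene. HAT2, a homeodomain-leucine zipper gene known to respond to auxin, changed by -0.79 (SE 0.10, adjusted p = 0.000614), from 9.12 and 9.30 to 8.40 and 8.44. IAA29, of the Aux/IAA family of auxin response repressors, changed by -1.23 (SE 0.27, adjusted p = 0.0216), from 7.00 and 6.29 to 5.45 and 5.39. Its call was lost without air 1 (-0.87), hypoxia 1 (-1.26) or hypoxia 2 (-1.20). The fifth, AT2G18010, changed by -0.65, from 4.51 and 4.56 to 3.93 and 3.83. The list held 3 called genes without hypoxia 2, and also 3 with the dimmest probe sets left out.

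Of 19 measured expansins 3 fell, against 1.31% of all probe sets, and none (0) rose, against 1.61%, with a median of -0.06. EXPA7 and EXPA18 encode expansins, wall-loosening proteins known from root hairs. EXPA18 read 8.42 and 8.98 in air and 7.53 and 7.45 under hypoxia, a change of -1.21 (SE 0.16, adjusted p = 0.000541). EXPA7 read 7.90 and 8.07 in air and 7.00 and 6.85 under hypoxia, a change of -1.06 (SE 0.11, adjusted p = 8.33e-05) beside -0.24 in Col-0 and -0.75 in prt6-1. GH9C1, a gene of the glycosyl hydrolase family that holds plant cellulases, read 7.88 and 7.77 in air and 7.07 and 6.50 under hypoxia and changed by -1.04 (SE 0.15, adjusted p = 0.00129), a call lost with all 18 arrays in 1 fit (adjusted p = 0.0622). No difference from hypoxic Col-0 was called for these genes. EXPA18 differed by -0.02 (95% interval -0.36 to 0.32) and EXPA7 by 0.15 (-0.09 to 0.39), while in air EXPA7 was 0.97 higher in ate1 ate2 (adjusted p = 0.000138). EXPA16 changed by -0.60 (adjusted p = 0.0171), a call lost when air 2 (-0.48), hypoxia 1 (-0.61) or hypoxia 2 (-0.60) was left out. The count of 3 was 2 when any of those 3 arrays was left out.

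EXPA7 and EXPA18 are also 2 of the 4 measured root markers, and the median of that list was lower on both hypoxia arrays. Its median level was 7.95 and 8.27 on the ate1 ate2 air arrays and 7.27 and 7.15 on the hypoxia arrays. In Col-0 it went from 7.37 and 7.57 to 7.13 and 7.15, and in prt6-1 from 7.67 and 7.77 to 6.87 and 6.79. The other two markers, HRGP1 and AT2G30660, changed by -0.28 and -0.18 without a call. The part of root RNA in the falls was not tested. XTH26, a xyloglucan endotransglucosylase gene, changed by -1.01 (adjusted p = 0.0684) from unequal air values of 5.20 and 6.38. None (0) of 10 measured genes of that family was called, against 1.61% of all probe sets higher and 1.31% lower.

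**Figure D3:**
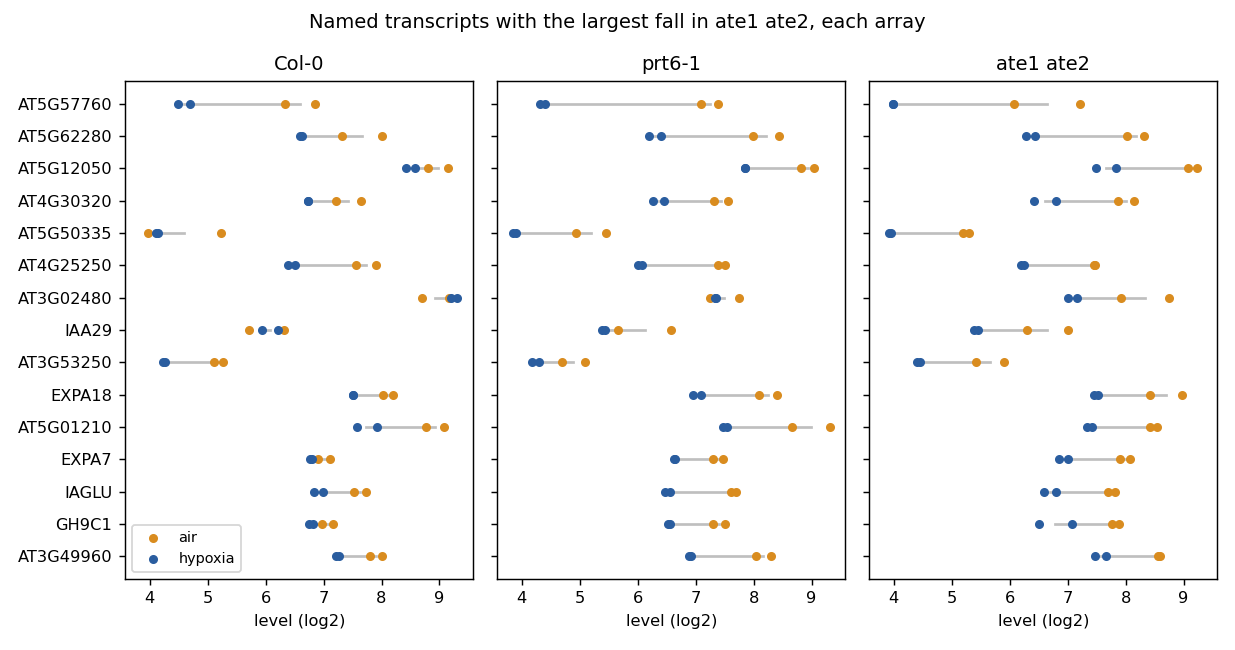
Levels (log2, x axis) of the 15 named transcripts with the largest fall in ate1 ate2 on each array of Col-0, prt6-1 and ate1 ate2, with air in orange, hypoxia in blue and a grey line between the group means. In ate1 ate2 the hypoxia points lie left of the air points for all 15, whereas in Col-0 the conditions overlap for IAA29 and AT5G50335.

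The falls were the side on which ate1 ate2 and Col-0 lists shared least. Of the 298 probe sets lower in ate1 ate2, 49 were also lower in Col-0 (104 lower, 0.457%), which is 16.4% of the first list and 47.1% of the second, and 249 had a negative change in Col-0. Their median change was -0.62 in ate1 ate2 and -0.22 in Col-0. Among the rises 207 were shared, 56.4% of the ate1 ate2 list and 55.3% of the Col-0 list, with medians of 0.64 and 0.58. The rises and falls of ate1 ate2 were picked by their change there. That choice favours larger medians in ate1 ate2 than in Col-0 and, among the falls, negative interactions. Negative interactions were called for 13 of the 298 falls, against 0.295% of all probe sets. EXPA7 (-0.82, adjusted p = 0.0478), AT5G12050 (-1.02, adjusted p = 0.0486) and COR15A (-1.34, adjusted p = 0.0105) were among them, and the calls of EXPA7 and AT5G12050 were lost without any of 6 and 5 arrays and that of COR15A without hypoxia 2 of either genotype. The arrays whose loss ended the call for EXPA7 were both Col-0 and both ate1 ate2 hypoxia arrays, Col-0 air 1 and ate1 ate2 air 2. For AT5G12050 they were the same without ate1 ate2 hypoxia 2. Both calls were also lost under quantile renormalization, with array weights, with all 18 arrays in 1 fit and with only the arrays compared. That of EXPA7 was lost with an intensity trend too, and that of COR15A with all 18 arrays in 1 fit.

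Of 6 measured genes in the cold and dehydration list 1 was called, against 1.31% of all probe sets lower. This was COR15A, which encodes a chloroplast protein of cold and drought responses. It read 6.81 and 6.94 in air and 6.20 and 6.03 under hypoxia in ate1 ate2, a change of -0.76 (SE 0.15, adjusted p = 0.0128), and 6.22 and 5.80 in air and 6.53 and 6.65 under hypoxia in Col-0. The change was not called without air 2 (-0.69) or hypoxia 2 (-0.67). AT3G02480 read 8.74 and 7.92 in air and 7.16 and 7.01 under hypoxia, a change of -1.24 (SE 0.22, adjusted p = 0.00599) beside 0.32 in Col-0, and was not called without hypoxia 2 (-1.16). None (0) of the 9 measured genes on the late embryogenesis abundant list was called, against 1.61% of all probe sets higher and 1.31% lower. AT3G02480 is not on that list, where the lowest change was -0.84. LEA18 read 6.55 and 4.41 in air and 4.54 and 4.73 under hypoxia. AT3G17520 read 6.25 and 4.85 in air and 5.00 and 4.91 under hypoxia. Among the ate1 ate2 arrays, air 1 alone stood high in both genes. Their changes were -0.84 and -0.60, and 0.23 and 0.10 without that array. Without air 2 they were -1.91 and -1.29, and both were then called. In the list 8 of 9 genes were higher on air 1 than on air 2. The list median was 6.55 on ate1 ate2 air 1, 4.85 on air 2, and 5.00 and 4.91 under hypoxia. It was 6.50 to 7.01 on the Col-0 seedling arrays and 4.53 to 4.70 on those of prt6-1. On this list air 1 thus stood near the Col-0 level, and the other ate1 ate2 arrays nearer to prt6-1. The cause was not tested.

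Few transcripts encoded in the plastid genome were called. Of 69 measured, 2 rose, or 2.9%, against 1.61% of all probe sets, and none (0) fell, against 1.31%, so the share was near the background. The median was 0.17 in ate1 ate2, -0.15 in Col-0 and 0.27 in prt6-1, where 5 rose (1.75% of all probe sets). A positive change in ate1 ate2 was seen for 57 of the 69, against 10455 of all 22746 probe sets. The psaJ transcript, for a subunit of photosystem I, read 10.47 and 10.25 in air and 10.91 and 11.05 under hypoxia, a change of 0.62 (adjusted p = 0.0343). The rpl33 transcript, for a plastid ribosomal protein, changed by 0.53 (adjusted p = 0.0407), from 11.31 and 10.90 to 11.70 and 11.57. Both calls were lost without air 2 (0.51 and 0.32), hypoxia 1 (0.69 and 0.46) or hypoxia 2 (0.55 and 0.60), and also under median centring. In the photosynthesis list psaJ was the 1 called of 29 and the median was 0.13.

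**Figure D4:**
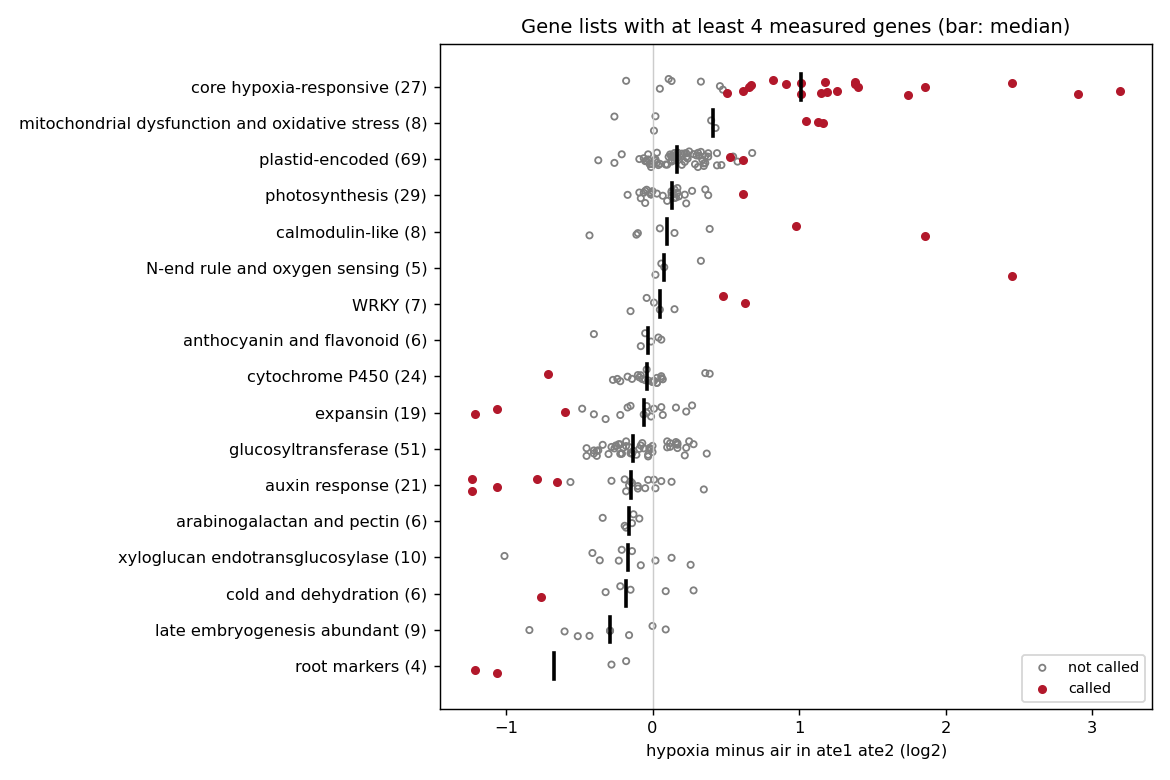
Change under hypoxia in ate1 ate2 (log2, x axis) of each measured gene in the lists with at least 4 measured genes (number in brackets), with called genes in red, others as open circles and the list median as a black bar. The core hypoxia-responsive list has its median at 1.01 and the root markers at -0.67, and most other medians lie within 0.3 of 0.

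The response of ate1 ate2 was also set against that of prt6-1, the mutant of the ligase that acts after the transferases. Few calls from this test do not show that the responses are alike. Of all probe sets 1 differed in its response between the mutants in the positive direction (0.0044%) and 0 in the negative (0%), with 1389 at an unadjusted p under 0.05. That probe set was AT4G08780, at 1.32 (SE 0.17, adjusted p = 0.0355), for which the prt6-1 arrays read 6.43 and 6.57 in air and 5.65 and 5.70 under hypoxia. The call was lost without ate1 ate2 air 1 (1.28), ate1 ate2 hypoxia 2 (1.18) or any of the 4 prt6-1 arrays (1.25 to 1.39). Without ate1 ate2 air 2 the count was 9, and without ate1 ate2 hypoxia 1 it was 2. Rises shared by both mutants numbered 232, 63.2% of the ate1 ate2 list and 58.1% of the prt6-1 list. Shared falls numbered 167, 56.0% of the ate1 ate2 list and 31.6% of the prt6-1 list (528 lower, 2.32%).

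No core gene had a called difference between the mutants, and most changed less in ate1 ate2. The change was smaller than in prt6-1 for 23 of the 27, with a median difference of -0.32 beside 0.01 over all probe sets. The 27 genes were read on the same arrays, so 23 of 27 is not a count of independent results. Of the 27, 12 had an unadjusted p under 0.05, against 1389 of all 22746 probe sets. AT5G10040 rose by 3.19 in ate1 ate2 and 4.07 in prt6-1, a difference of -0.88 (95% interval -1.37 to -0.40, adjusted p = 0.751). AT1G72940 rose by 1.18 against 2.04, a difference of -0.87 (-1.26 to -0.48, adjusted p = 0.513). For CML38 the difference was -0.70 (-1.12 to -0.27) and for HRA1 -0.53 (-0.93 to -0.13). These unadjusted intervals leave out 0, while the adjusted values do not pass the threshold, so no difference between the mutants was called for these genes and none was excluded by the test. AT4G27450 differed by 0.01 (-0.33 to 0.36) and AT3G29970 by -0.05 (-0.44 to 0.34). Outside the core list AT5G20790 rose by 2.02 in ate1 ate2 and by 1.34 in prt6-1, a difference of 0.68 (0.37 to 0.99, adjusted p = 0.513).

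**Figure D5:**
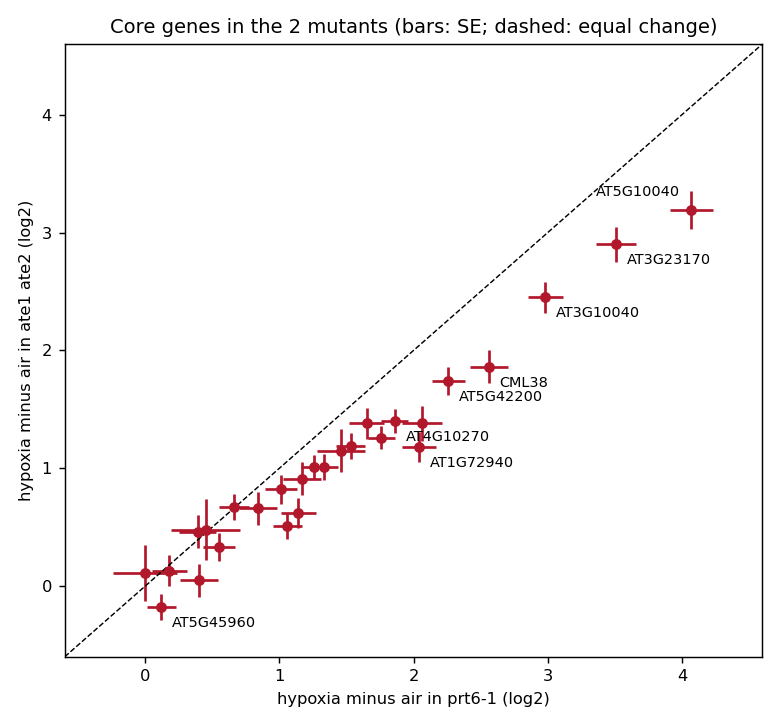
Change under hypoxia of the 27 core genes in ate1 ate2 (y axis) against that in prt6-1 (x axis), log2, with bars of 1 SE and a dashed line of equal change. Points lie below the line for 23 of 27 genes, with the widest gaps at AT5G10040 and AT1G72940.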

How the data were processed

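The deposited values are RMA signals on the log2 scale, 1 for each probe set on each array; RMA and affy, without versions, are named in the submitters' processing notes. RMA makes arrays alike in distribution, so a shift shared by most transcripts would be removed. Signal over background was not used here, and precision is limited by how many arrays there are. From the 22810 probe sets the 64 AFFX controls were removed. Names from the platform annotation, brought up to date with the TAIR10.1 gene table, gave 1 gene for 13513 probe sets, several for 503 and none for 8730; 13484 of the 13513 matched that table. The array names no build, and no coordinates are given.

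Groups came from the labels. The 6 seedling groups were fitted in a cell-means model with limma 3.58.1 in R 4.3.3 (lmFit, eBayes; 6 residual and 8.26 prior degrees of freedom). Every adjusted p is limma's, two-sided, with Benjamini-Hochberg adjustment over 22746 probe sets, and a call is an adjusted p under 0.05. Intervals are 95% and not adjusted. The fit was tested on simulated data.

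Members, the 31 gene lists and tests were chosen with earlier results of these data known, and some list patterns were corrected after gene values had been seen. A gene is represented by its brightest single-gene probe set. A listed gene without such a probe set counts as not measured, though the array may hold a probe set for it. Named are the 15 largest rises and 15 largest falls among calls whose 2 arrays a condition do not overlap, up to 10 interactions in each direction, up to 4 called genes of each list (or the 2 largest), and every measured core gene. A few genes beyond the rule (AT4G17260, PPDK, HRGP1, AT2G30660) complete a list. Same-numbered arrays' deviations correlated at -0.23 to 0.26 between groups. Arrays were not paired by number in the main fit. These correlations cannot settle whether the numbers mark arrays handled together. Promoter and protein sequences, and the mitochondrion-encoded, ribosomal protein, aquaporin and trehalose lists, were not analysed here. Alternatives covered normalization, filters, variance model, arrays fitted, a replicate block, thresholds and leaving out each array.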

Additional observations from a re-analysis of the deposited data

Results flagged for a closer look

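The 13 differences between the hypoxia responses of genotypes listed here were each tested as an interaction in limma and stand out because the responses themselves differed. Against Col-0, the response of ate1 ate2 was larger for AT5G48110 by 0.99 log2 units and for AT4G08780 by 0.92. It was smaller for AT1G33055 (-3.75), AT2G17850 (-3.68), CML38 (-3.29), AT4G10270 (-2.96), AT1G19530 (-2.95), AT3G27220 (-2.84), AT4G39675 (-2.83), AT5G66985 (-2.75), AT4G24110 (-2.74) and AT5G10040 (-2.69). All 10 of these are core hypoxia-responsive genes, and their calls held in each alternative fit and without any 1 array of the compared groups. Against prt6-1, the response of AT4G08780 was larger by 1.32. No cause was tested for any of them.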

How the results depend on the processing

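With 2 arrays a group, counts moved more than single changes. The 665 calls of ate1 ate2 became 314 with single-gene probe sets, 282 with all 18 arrays in 1 fit (68.1% of them higher), 389 with only its own arrays, 276 at an adjusted p under 0.01, and 109 at an adjusted p under 0.05 with at least a doubling or halving. Without 1 array they were 192 to 574. The 70 differences from Col-0 became 35, 44, 50, 39 and 49 in the same order, and 41 to 133 without 1 array. The 1 difference from prt6-1 became 0 under quantile renormalization, at the stricter threshold and in both refits of more or fewer arrays, 3 under median centring and 3 with an intensity trend, and 0 to 9 without 1 array. The core count of 20 stayed at 14 to 21 in every alternative and at 16 to 18 without 1 array. With a replicate block the calls were 789, 79, 1 and 20; pairing of the arrays is not given by the labels, and same-numbered air and hypoxia arrays of ate1 ate2 correlated at 0.182 in their deviations.

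Of 67 called gene results named, 47 kept their call throughout, 19 lost it without at least 1 array, 14 in another fit, and 0 changed sign. Calls lost with all 18 arrays in 1 fit included AT3G02480, IAA29, GH9C1, PDC2, COR15A and AT4G08780. The 67 do not cover every call named above. They leave out the fall of AT2G18010 and the interactions of AT3G23170, AT1G74940, PDC2, EXPA7, AT5G12050 and COR15A. Each of these interactions lost its call in some refits, as given above. Signs changed for uncalled values near 0, and for LEA18 and AT3G17520. Leaving out 1 array in turn gave -0.08 to 0.18 for AT2G15880, -0.03 to 0.30 for AT3G29970, -0.38 to 0.60 for AT5G39580, -0.17 to 0.02 for EIN3, -0.20 to 0.27 for SDP1, -0.13 to 0.01 for PAP85 (0.02 under quantile renormalization), -0.07 to 0.15 for OLEO3, -1.91 to 0.23 for LEA18, -1.29 to 0.10 for AT3G17520, -0.08 to 0.40 for ORA47 and -0.13 to 0.11 for OPCL1. The cause was not tested.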

Other observations

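Several gene groups had no called gene in ate1 ate2 by limma, which gave 3474 probe sets with p under 0.05 before adjustment. ICL, which encodes isocitrate lyase and belongs to the glyoxylate cycle, read 12.99 and 12.94 in air and 12.65 and 12.74 under hypoxia, a change of -0.27 (adjusted p = 0.59). In Col-0 it read 7.27 and 8.02 in air and 8.32 and 7.86 under hypoxia, so the ate1 ate2 arrays of both conditions lay far above all 4 Col-0 arrays. EIN3, a transcription factor gene of ethylene signalling, changed by -0.08, and GI (GIGANTEA), a gene of the circadian clock, by -0.23. Of 51 measured glucosyltransferase genes 0 were called (median -0.13). Over all probe sets 1.61% were higher and 1.31% lower, so lists of this size would hold few calls. Of 24 cytochrome P450 genes 1 was called, CYP718 at -0.71 (adjusted p = 0.0488). That call was lost without air 2 (-0.44), hypoxia 1 (-0.80) or hypoxia 2 (-0.62). The 6 anthocyanin and flavonoid genes had a median of -0.03, with UF3GT lowest at -0.40. The 2 measured AP2/ERF genes, SHN3 and ORA47, changed by -0.27 and 0.16, and the 2 heat shock genes by -0.22 and -0.19.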
